A study of Mus musculus with 30 samples.

Results

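The genes described here are 10 transcription factors of fat cell formation, Pparg, Cebpa, Cebpb, Cebpd, Klf15, Ebf1, Srebf1, Zfp423, Rxra and Gata2. They were chosen by name, with earlier results of these data known, out of 54232 genes in the count table, and all 10 passed the filter on low counts. A preadipocyte becomes a fat cell through a relay of DNA-binding proteins. Hormones in the adipogenic medium first raise C/EBPβ (Cebpb) and C/EBPδ (Cebpd), which switch on PPARγ (Pparg) and C/EBPα (Cebpa), and these last factors sustain each other and drive the genes of the mature fat cell. RXRα (Rxra) binds DNA as the partner of PPARγ, Klf15 and Ebf1 act in the same relay, SREBP1 (Srebf1) drives genes of fatty acid synthesis, Zfp423 marks committed preadipocytes, and Gata2 holds cells in the preadipocyte state.

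The cells were 3T3-L1, an established line of mouse preadipocytes, in adipogenic medium for 5 days, and RNA was sequenced from 6 groups of 5 libraries. Control cells had the medium alone. The other groups had, on top of it, pNaKtide (0.7 µM), indoxyl sulfate (IS, 100 µM), IS + pNaKtide, oxidized low density lipoprotein (oxLDL, 50 µg/mL) or oxLDL + pNaKtide. IS is a solute retained in kidney failure, oxLDL is an oxidant lipoprotein, and pNaKtide is a cell-permeant peptide from the Na,K-ATPase that binds the kinase Src. All groups are a single immortal line without the other cells of fat tissue, and the sources differ on the length of treatment, 5 days in the sample labels and 2 days in the methods. Nothing in the labels ties a library to a separate culture, so that p-values measure the spread between libraries, which may be technical.

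Library depth, the sum of counts over all genes, ran from 6945498 to 15159877. Fat cell markers were high in every library, with Adipoq (adiponectin) at 478 to 1040 FPKM and Plin1 (the lipid droplet coat protein perilipin) at 103 to 153 FPKM. Of 6 leukocyte markers, Ptprc and Cd3e had 0 counts in every library and Adgre1 and Csf1r at most 6, while Cd68 had 28 to 86 and Lyz2 5 to 34. Of 4 muscle markers, Myod1 and Myog had 0 counts and Actc1 at most 1, while Des had 112 to 316 and was called with oxLDL (-0.70) and with oxLDL + pNaKtide against oxLDL (1.09). Of 5 brown or beige markers, Prdm16 had 0 counts and Ucp1 and Cidea at most 6, while Cox8b had 16 to 79 and Elovl3 had 134 to 311 and was called in the same directions (-0.45 and 0.74). The part of these markers in the results was not tested. Of 10 preadipocyte markers, Cd34 had at most 7 counts and Dpp4 at most 13, while the others had 94 or more in every library, with Col1a1 at 131 to 416 FPKM. With oxLDL 2 of the 10 were lower, Dlk1 among them (18% of all genes), and with IS 3 (3.49%). With oxLDL + pNaKtide against oxLDL 2 rose, Dlk1 among them (22.1%), and 2 fell, Pdgfra among them (26.1%). The summed level of the 10 markers ranged from 606 to 794 FPKM in control cells, above every library with oxLDL (490 to 561) and IS + pNaKtide (373 to 500) and overlapping those with IS (370 to 634), pNaKtide (439 to 738) and oxLDL + pNaKtide (497 to 789). Its part in the results was not tested either. Fewer cells of a type and less RNA per cell cannot be told apart in such bulk samples. Control replicate 1 and IS replicate 4 stood apart from their groups on the first principal component, with scores of -25.8 (other control libraries 6.47 to 29.9) and 28.2 (other IS libraries -36.7 to -23.2). Each library also had a trend of its counts over the GC content of genes. The rank correlation of a gene's deviation with its GC content ran from -0.63 to -0.42 in the oxLDL libraries and from 0.19 to 0.63 in the oxLDL + pNaKtide libraries, so that this trend and the treatment cannot be told apart between these groups. It was -0.53 to -0.14 with IS + pNaKtide. In the other groups a single library had the opposite sign to the rest. These were control replicate 1 (-0.40, others 0.08 to 0.65), IS replicate 4 (0.55, others -0.62 to -0.47) and pNaKtide replicate 3 (-0.46, others 0.41 to 0.60). The first and second of these also stood apart on the principal component. The comparisons were therefore also made with the trends over GC content and transcript length taken out of all libraries.

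The 10 genes lie on 6 chromosomes of the mouse genome GRCm38 and are protein-coding. Cebpa (ENSMUSG00000034957, chromosome 7, 35119293 to 35121928), Cebpb (ENSMUSG00000056501, chromosome 2, 167688915 to 167690418) and Cebpd (ENSMUSG00000071637, chromosome 16, 15887286 to 15891031) each have a single exon. Pparg (ENSMUSG00000000440, chromosome 6, 115360951 to 115490399) and Ebf1 (ENSMUSG00000057098, chromosome 11, 44617317 to 45008091) spread 13 and 17 exon parts over long introns. Rxra (ENSMUSG00000015846) covers 27676440 to 27762957 of chromosome 2. Srebf1 (ENSMUSG00000020538) covers 60199089 to 60222581 of chromosome 11, and Zfp423 (ENSMUSG00000045333) covers 87661810 to 87959595 of chromosome 8. Klf15 (ENSMUSG00000030087, 90462576 to 90475238) and Gata2 (ENSMUSG00000015053, 88193891 to 88207032) are on chromosome 6 like Pparg. The GC content of the longest transcript differed widely among them, from 43.1% in Ebf1 and 50.2% in Pparg to 62.6% in Cebpa and 67.2% in Cebpb.

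The promoters of the genes that moved with oxLDL are shown next, together with an internal promoter of Pparg. Each is the 250 bases before a RefSeq transcript start on GRCm38.p6, read 5′ to 3′ on the gene's strand. Capitals mark matches, on either strand, to the GC box GGGCGG, the CCAAT box, the C/EBP-type motif TTNNGCAA, the E-box CACGTG, the sterol element TCACNCCAC or the TATA box TATAAA, and no matches overlap in these windows. Over 32841 promoters of the same length, 32.7% held a GC box, 33.9% CCAAT, 9.6% the C/EBP-type motif, 6.0% the E-box, 1.1% the sterol element and 12.4% the TATA box, and the median GC content was 52.4%.
Cebpa, chr7:35119043-35119292, plus strand: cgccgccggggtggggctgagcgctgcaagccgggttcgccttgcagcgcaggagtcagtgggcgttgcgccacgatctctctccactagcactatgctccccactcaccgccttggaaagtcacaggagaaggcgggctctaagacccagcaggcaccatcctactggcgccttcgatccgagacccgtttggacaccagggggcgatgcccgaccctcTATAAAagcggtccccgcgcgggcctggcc
Rxra, chr2:27676951-27677200, plus strand: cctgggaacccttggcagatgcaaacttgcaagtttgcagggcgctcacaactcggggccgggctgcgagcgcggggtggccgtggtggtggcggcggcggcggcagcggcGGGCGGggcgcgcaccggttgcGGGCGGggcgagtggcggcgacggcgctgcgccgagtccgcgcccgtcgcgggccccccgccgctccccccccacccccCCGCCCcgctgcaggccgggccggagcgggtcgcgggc
Srebf1, chr11:60222582-60222831, minus strand: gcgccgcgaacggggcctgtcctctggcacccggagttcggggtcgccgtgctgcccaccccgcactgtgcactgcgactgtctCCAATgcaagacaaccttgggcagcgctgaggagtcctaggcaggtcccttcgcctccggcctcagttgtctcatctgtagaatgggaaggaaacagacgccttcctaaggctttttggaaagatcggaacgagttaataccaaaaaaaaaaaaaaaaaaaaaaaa
Zfp423, chr8:87959596-87959845, minus strand: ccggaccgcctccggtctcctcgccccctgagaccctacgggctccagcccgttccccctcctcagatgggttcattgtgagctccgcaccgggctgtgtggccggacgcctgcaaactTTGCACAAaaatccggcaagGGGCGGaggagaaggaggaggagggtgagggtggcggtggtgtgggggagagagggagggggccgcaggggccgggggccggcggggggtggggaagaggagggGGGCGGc
Pparg, internal start, chr6:115421816-115422065, plus strand: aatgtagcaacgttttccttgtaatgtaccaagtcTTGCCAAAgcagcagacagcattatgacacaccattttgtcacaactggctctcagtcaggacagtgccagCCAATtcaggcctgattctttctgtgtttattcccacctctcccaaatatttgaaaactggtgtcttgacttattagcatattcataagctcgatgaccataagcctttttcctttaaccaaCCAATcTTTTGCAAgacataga

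Cebpa had a TATA box that began 30 bases before its start, in a window of 66.4% GC. Rxra, which moved with Cebpa, had 3 GC boxes and 81.2% GC, and Srebf1 had a CCAAT box at -166 and 54.4% GC. A Srebf1 start 1954 bases inside the gene, not shown, had GC boxes at -36 and -14 (63.2% GC). Another, 12110 bases inside it, had GC boxes at -65 and -6 and a CCAAT box at -30 (70.8% GC). Zfp423, which moved the other way, had GC boxes at -111 and -7 and a C/EBP-type match at -131. Further starts of Rxra (no match) and Zfp423 (a GC box at -62) are not shown either. The Pparg start shown lies 61115 bases inside the gene, and its window, of 40.8% GC, held C/EBP-type matches at -215 and -16 and CCAAT boxes at -144 and -22. The counts do not separate the starts of a gene, so that where a gene has several, no change can be tied to a single window. The internal promoter of Pparg gives the longer protein found mainly in fat cells. A match is a description of letters only, and 9 of the 10 genes had a promoter entry (Cebpd had none).

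Scaled to gene length, the late factors of the relay and Rxra, the partner of PPARγ, were the most abundant. Over all 30 libraries, the mean was 82.0 FPKM for Cebpa, 78.5 for Rxra and 52.6 for Pparg. The early factors and Srebf1 followed at 22.3 FPKM (Cebpd), 19.3 (Srebf1) and 19.2 (Cebpb). Klf15 had 5.29, Zfp423 3.43 and Ebf1 3.34 FPKM, and Gata2, whose fall accompanies commitment to fat, had 0.171 FPKM from 2 to 19 counts per library. Some neighbours in this order could not be ordered. Cebpa exceeded Rxra in 19 of 30 libraries with overlapping ranges in all 6 groups, Srebf1 exceeded Cebpb in 16 of 30, and Zfp423 exceeded Ebf1 in 16 of 30. Cebpd exceeded Srebf1 in 27 of 30 libraries, but their ranges overlapped in 5 of 6 groups. The steps from Rxra to Pparg, Pparg to Cebpd, Cebpb to Klf15, Klf15 to Zfp423 and Ebf1 to Gata2 held in 30 of 30 libraries, and counts per kilobase of exon gave the same order.

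**Figure D1:**
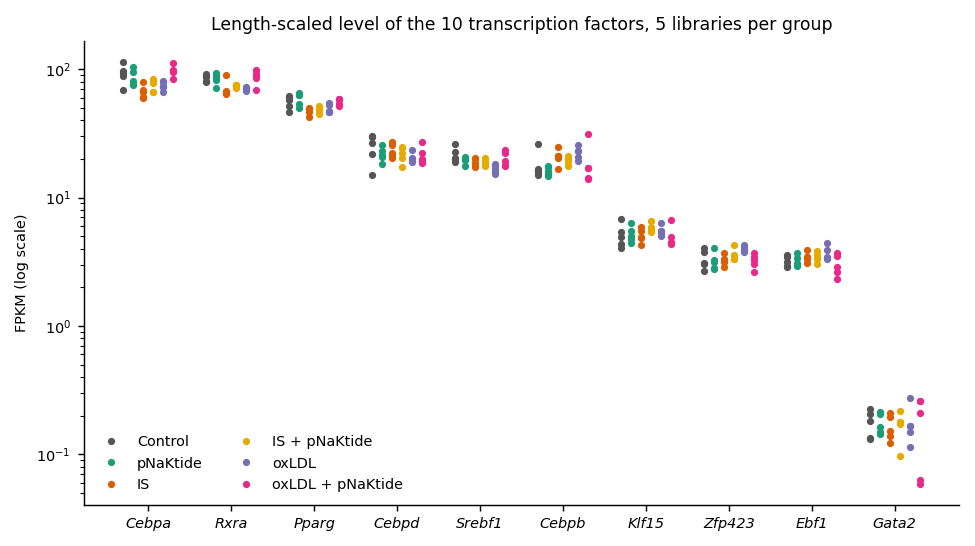
FPKM (vertical axis, log scale) of the 10 transcription factors (horizontal axis, in falling order of their mean), with 1 point per library, 5 per group and a colour per group. Cebpa, Rxra and Pparg lie at 42.5 FPKM or more in every library and Gata2 at 0.275 FPKM or less, while the 6 groups lie close together for each gene.

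The groups differed less than the genes did. The largest ratio between the highest and lowest group mean was 1.42 (Cebpa, oxLDL + pNaKtide over IS), followed by 1.40 for Cebpb, 1.29 for Srebf1 and 1.27 for Zfp423. In edgeR's test for any difference among the 6 groups, 5 of the 10 genes passed an adjusted p of 0.1, against 45.1% of the 20139 genes tested. They were Cebpa (adjusted p = 0.00267), Rxra (0.0192), Pparg (0.0235), Srebf1 (0.0323) and Zfp423 (0.0753). Ebf1 (0.172), Cebpb (0.17), Cebpd (0.475), Klf15 (0.547) and Gata2 (1) did not pass in the same edgeR test. With the trend over GC content and length taken out, Cebpa (adjusted p = 0.223), Srebf1 (0.299) and Rxra (0.324) no longer passed in edgeR's test, and scaled by library size alone Pparg (0.437) and Rxra (0.358) did not. Zfp423 was lost with at least 1 count as the filter (adjusted p = 0.108, edgeR), at an adjusted p of 0.05, and in 10 of 30 fits with a library left out, those without control replicate 4, oxLDL replicate 1, 2, 3 or 5, oxLDL + pNaKtide replicate 1, 2 or 4, or pNaKtide replicate 1 or 2. Levels of single genes are given from here on as CPM scaled by edgeR's TMM method. One control library set the upper end of most genes, with replicate 5 the highest of its group for 7 of the 10 genes and replicate 1 the lowest for 7.

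**Figure D2:**
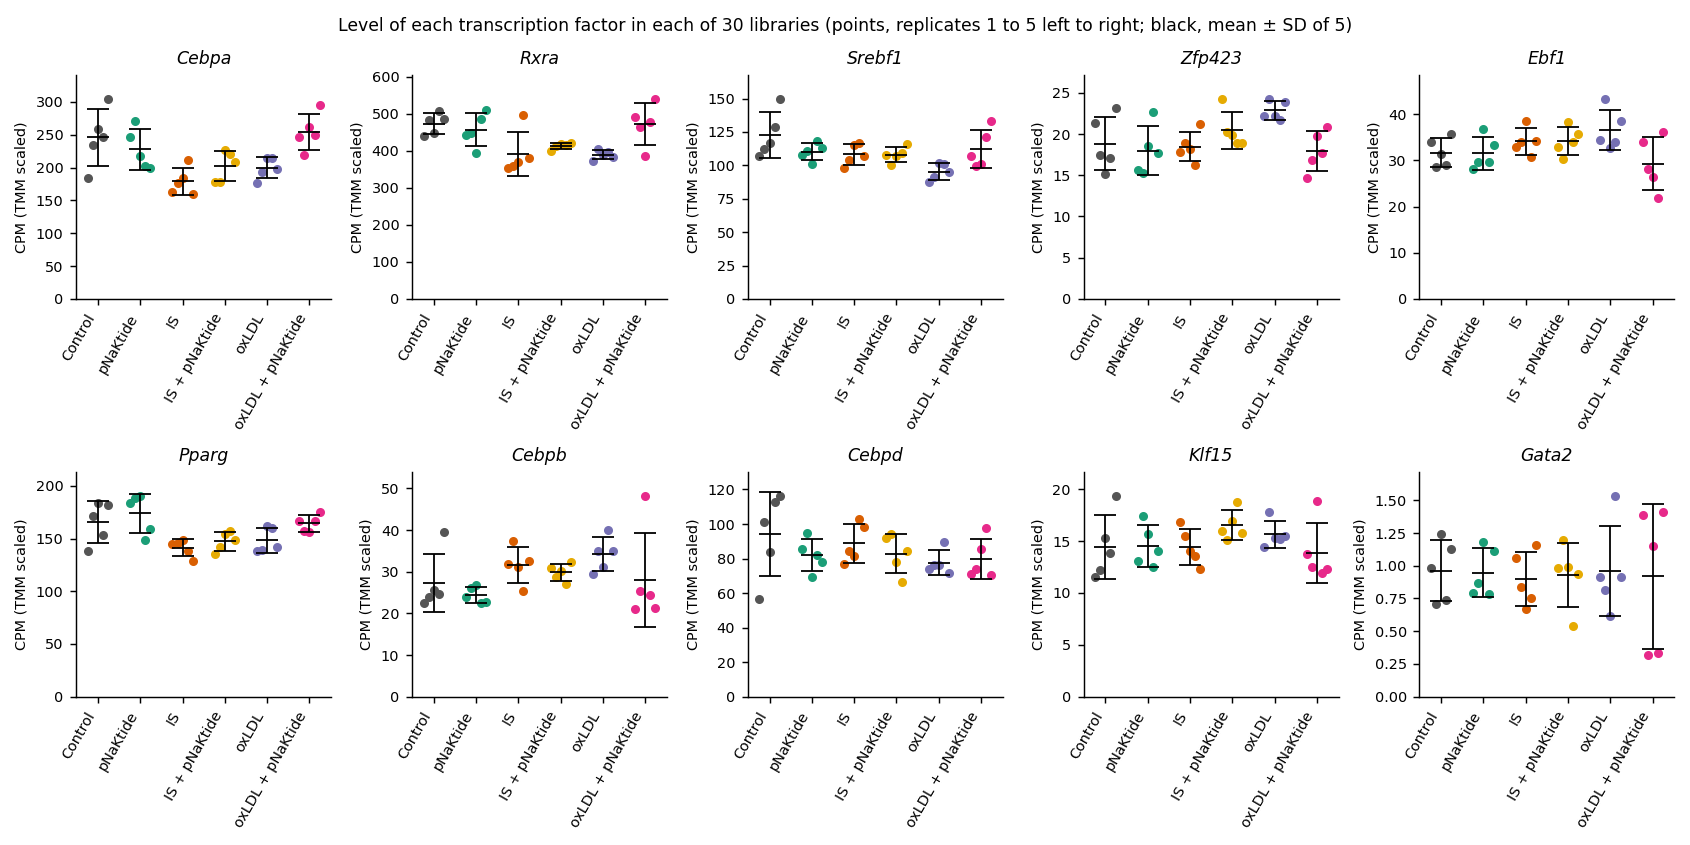
CPM scaled by TMM (vertical axis, from 0) of each transcription factor in each library, in 6 groups (horizontal axis) with replicates 1 to 5 from left to right and the mean ± SD of 5 in black. The oxLDL libraries lie below all control libraries for Rxra and Srebf1 and the oxLDL + pNaKtide libraries lie below all oxLDL libraries for Zfp423, while single high libraries stand out for Cebpb (control replicate 5, oxLDL + pNaKtide replicate 3).

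The comparison of oxLDL with control cells asked how oxidized lipoprotein acts on differentiating fat cells. Srebf1, Rxra and Cebpa fell and Zfp423 rose, by folds of 0.775 to 1.21. These were 3 of 10 genes lower and 1 higher, where 18% of all genes tested were lower and 18.1% higher. Pparg, Cebpb, Cebpd, Klf15, Ebf1 and Gata2 did not pass.

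Srebf1 was 107, 112, 117, 129 and 150 CPM in control replicates 1 to 5 and 87.6, 91.3, 102, 101 and 94.9 CPM in the oxLDL replicates. Every oxLDL library lay below every control library. Means of 95.5 ± 6.4 and 123 ± 17.1 CPM (SD, n = 5) gave a log2 change of -0.37 with an SE of 0.09 (adjusted p = 0.00818, edgeR). Rxra was 440, 482, 447, 508 and 487 CPM in control libraries and 373, 404, 389, 396 and 384 CPM with oxLDL. The groups again did not overlap, and the log2 change was -0.28 (SE 0.09, adjusted p = 0.0254, edgeR). Both calls held with each library left out in turn, with adjusted p of at most 0.0344 for Srebf1 and 0.0693 for Rxra.

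Cebpa was 184, 234, 259, 247 and 305 CPM in control libraries and 177, 193, 215, 215 and 198 CPM with oxLDL. Control replicate 1 lay among the oxLDL libraries and control replicate 5 lay far above the rest. The log2 change was -0.30 (SE 0.11, adjusted p = 0.0451, edgeR), and it was no longer called without control replicate 5 (adjusted p = 0.185) or oxLDL replicate 1 (0.115). Zfp423 was 21.3, 17.5, 15.2, 17.1 and 23.1 CPM in control libraries and 22.2, 24.3, 22.2, 21.7 and 23.9 CPM with oxLDL. Of the control libraries, replicate 5 lay within the oxLDL range and replicate 1 just under it. The change was 0.28 (SE 0.11, adjusted p = 0.0667, edgeR), and the call was lost without control replicate 2, 3 or 4 or oxLDL replicate 2 or 5, with adjusted p of at most 0.19.

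Of the genes that did not pass, Pparg itself was 138, 171, 184, 153 and 182 CPM in control libraries and 138, 139, 162, 160 and 142 CPM with oxLDL. Its log2 difference was -0.16 (95% interval -0.34 to 0.01, adjusted p = 0.155, edgeR), and it passed at -0.22 (0.0336) without control replicate 1, the lowest control library. The early factor Cebpb was 22.6, 24.0, 25.7, 24.6 and 39.6 CPM in control libraries and 29.5, 35.1, 31.2, 40.0 and 35.0 CPM with oxLDL. All oxLDL libraries lay above control replicates 1 to 4, and control replicate 5 lay above all but 1 of them. The difference was 0.32 (-0.01 to 0.66, adjusted p = 0.138, edgeR), and 0.50 (0.0385) without that library. The other early factor, Cebpd, had a difference of the opposite sign, -0.28 (-0.55 to 0.00, adjusted p = 0.128, edgeR), which passed without control replicate 1 (-0.41, 0.00526) or oxLDL replicate 4. Ebf1 (0.21, -0.01 to 0.43, adjusted p = 0.147) and Klf15 (0.12, -0.14 to 0.39, adjusted p = 0.519) did not pass edgeR's test, and Gata2, near the floor of detection, was 0.959 against 0.962 CPM.

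With control replicate 1 and IS replicate 4 left out together, 7 of the 10 genes were called between oxLDL and control cells, as were 9593 of the 19973 genes tested. Without these libraries the sign of the trend over GC content divides the control libraries from the oxLDL and IS libraries. Pparg (-0.22), Cebpa (-0.39), Cebpd (-0.41), Srebf1 (-0.41) and Rxra (-0.31) were lower and Ebf1 (0.24) and Zfp423 (0.33) higher in that fit. With the trend over GC content and length taken out, the calls of Srebf1 (-0.14), Rxra (-0.07) and Cebpa (0.01, the opposite sign) were lost. Zfp423 was then called at 0.48 (adjusted p = 0.0104, edgeR), and Cebpb (0.71, 0.0307) and Klf15 (0.36, 0.0744) were called too. Scaled by library size alone, all genes had a median of 0.17 in place of 0.04, and the genes called went from 3637 higher and 3622 lower to 4963 and 2276. Srebf1 (-0.24) and Zfp423 (0.40) were called on that scale, as were Cebpb (0.45) and Ebf1 (0.34), and Cebpa and Rxra were not.

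**Figure D3:**
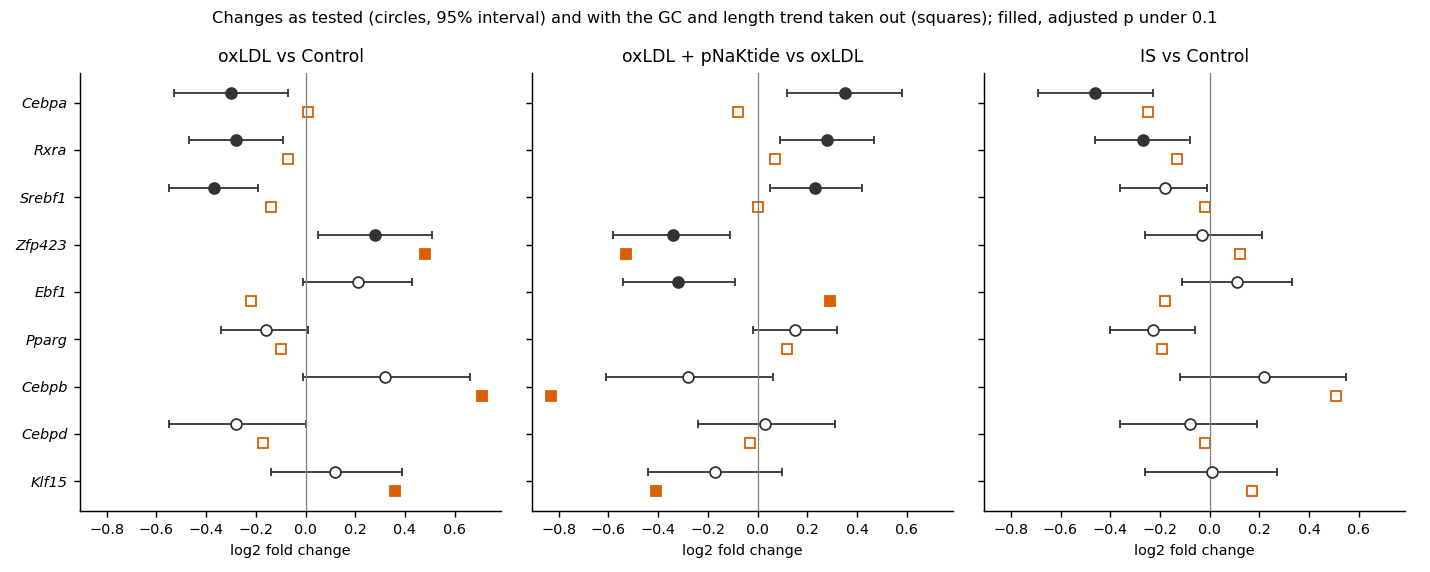
Log2 fold change (horizontal axis) of 9 transcription factors (vertical axis) in 3 comparisons, with circles and 95% intervals for the main test and squares for the test with the trend over GC content and length taken out, filled where the adjusted p was under 0.1. Zfp423 is filled in both tests of both oxLDL comparisons, the Cebpa, Rxra and Srebf1 squares lie nearer 0 than their circles, and the Ebf1 square lies on the other side of 0.

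The comparison of oxLDL + pNaKtide with oxLDL asked what the peptide did in the presence of oxLDL. The 4 genes called with oxLDL were called again in the opposite direction. Cebpa, Rxra and Srebf1 rose (3 of 10 genes, 22.1% of all genes tested), and Zfp423 and Ebf1 fell (2 of 10 genes, 26.1% of all genes tested). The oxLDL libraries are shared by this comparison and the last, so that opposite signs are favoured by the shared libraries alone.

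Cebpa was 246, 219, 261, 249 and 295 CPM in the oxLDL + pNaKtide replicates, each above every oxLDL library. Its log2 change was 0.35 (SE 0.11, adjusted p = 0.013, edgeR). Rxra was 492, 463, 386, 479 and 541 CPM, and replicate 3 lay among the oxLDL libraries while the other 4 lay above them. Its change was 0.28 (SE 0.09, adjusted p = 0.0151, edgeR). Srebf1 was 107, 99.6, 101, 121 and 133 CPM, with 2 libraries inside the range of the oxLDL group, and changed by 0.23 (SE 0.09, adjusted p = 0.0329, edgeR). Cebpa and Rxra were called with each library left out, and Srebf1 was not without oxLDL + pNaKtide replicate 5 (adjusted p = 0.11).

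Zfp423 was 14.7, 16.9, 19.7, 17.7 and 20.8 CPM, each below every oxLDL library. Its log2 change was -0.34 (SE 0.12, adjusted p = 0.0168, edgeR), and it was called under all 12 other settings and with each of the 10 libraries left out. Ebf1 was 34.4, 43.4, 32.6, 34.0 and 38.6 CPM with oxLDL and 33.9, 28.1, 26.4, 21.9 and 36.1 CPM with oxLDL + pNaKtide. The groups overlapped, and the change of -0.32 (SE 0.11, adjusted p = 0.0193, edgeR) was not called without oxLDL + pNaKtide replicate 4, the lowest of all 30 libraries for Ebf1 (adjusted p = 0.101). Pparg was 164 ± 8.07 against 148 ± 11.6 CPM (SD, n = 5), a difference of 0.15 (95% interval -0.02 to 0.32, adjusted p = 0.166, edgeR).

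Cebpb was 21.1, 25.3, 48.1, 24.5 and 21.2 CPM with oxLDL + pNaKtide. Replicate 3 was the highest of all 30 libraries and the other 4 lay below every oxLDL library, and the difference from oxLDL was -0.28 (adjusted p = 0.187, edgeR) with that library and -0.56 (0.000926) without it. Klf15 had the same single high library, 18.9 CPM against 11.9 to 13.7 CPM in the other 4, and differed by -0.17 (adjusted p = 0.327, edgeR) with it and -0.31 (0.0534) without it. Cebpd (0.03) and Gata2 (-0.02) differed little on the log2 scale, with intervals of -0.24 to 0.31 and -0.65 to 0.62.

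With the trend over GC content and length taken out, Cebpa (-0.08), Rxra (0.07) and Srebf1 (0.00) were no longer called, and Ebf1, which has the lowest GC content of the 10, was called in the opposite direction (0.29, adjusted p = 0.0259, edgeR). Zfp423 (-0.53, 0.000331) kept its direction and call, and Cebpb (-0.83, 0.0029) and Klf15 (-0.41, 0.0203) were called as lower. Scaled by library size alone, all genes had a median of -0.30 in place of -0.09, and the genes called went from 4458 higher and 5264 lower to 2696 and 7680. Zfp423 (-0.57), Ebf1 (-0.55), Cebpb (-0.49) and Klf15 (-0.39) were called as lower on that scale, where Klf15 lay close to the median of all genes, and Cebpa, Rxra and Srebf1 were not called.

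IS against control cells asked what the uremic solute did. Cebpa and Rxra fell (2 of 10 genes, where 3.49% of all genes tested were lower) and none of the 10 rose (4.45% of all genes). Cebpa was 163, 176, 184, 211 and 160 CPM with IS, with replicates 1, 2 and 5 below every control library and replicate 3 level with the lowest, and changed by -0.46 (SE 0.11, adjusted p = 0.0487, edgeR). Rxra was 353, 359, 370, 497 and 381 CPM, so that replicate 4 lay inside the control range and the other 4 lay below it, and changed by -0.27 (SE 0.09, adjusted p = 0.0931, edgeR). The calls and the shares of all genes depended on single libraries, and between 15 (without control replicate 5) and 6901 (without IS replicate 4) genes were called with 1 library left out, against 1599 with all libraries and 0 when only the 2 groups compared were fitted. Cebpa was called in 3 of 10 fits with a library left out and Rxra in 2 of 10, and with the trend over GC content and length taken out neither was (-0.25 and -0.13). Scaled by library size alone, all genes had a median of 0.14 in place of 0.03, and the genes called went from 897 higher and 702 lower to 2125 and 416, and Cebpa alone of the 10 was called (-0.35).

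Pparg was 145, 146, 149, 138 and 129 CPM with IS. Control replicate 1, at 138 CPM, lay among the IS libraries and the other control libraries lay above them. The difference was -0.23 (95% interval -0.40 to -0.06, adjusted p = 0.111, edgeR), and Pparg passed without control replicate 1 (-0.29, 0.0153) or IS replicate 4 (-0.21, 0.0758). It was called under 6 of 12 other settings, those of DESeq2, limma, both stricter filters on counts, the replicate block and both libraries left out. With both libraries left out, 5 of the 10 were called, all lower, as were 4357 lower and 4783 higher of the 19973 genes tested. They were Pparg (-0.28), Cebpa (-0.62), Cebpd (-0.28), Srebf1 (-0.26) and Rxra (-0.40). Zfp423, higher with oxLDL, had means of 18.5 ± 1.76 CPM in the IS group and 18.8 ± 3.23 CPM in the control group (SD, n = 5). In the comparison of IS with oxLDL, none of the 10 passed (0.00993% of all genes were higher and 0.00497% lower, and DESeq2 called 41 genes). Zfp423 had the smallest unadjusted p there, 0.0113, with every IS library below every oxLDL library (log2 difference -0.30, interval -0.54 to -0.07, adjusted p = 0.856, edgeR).

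pNaKtide in cells without IS or oxLDL changed none of the 10 past the threshold (0% of all genes higher and 0.00497% lower, 1233 genes at an unadjusted p under 0.05, and 57 genes by DESeq2). The largest difference was -0.20 for Cebpd (95% interval -0.48 to 0.08), and the interval of Pparg was -0.11 to 0.24. IS + pNaKtide against IS gave 0 of 10 as well (0% of all genes in either direction by edgeR, 564 at an unadjusted p under 0.05, and 14 by DESeq2). Cebpa was 178, 178, 227, 220 and 209 CPM with IS + pNaKtide, which overlaps the IS range, and differed by 0.18 (interval -0.05 to 0.41, adjusted p = 1, edgeR). Rxra was 399, 412, 418, 416 and 422 CPM, narrowly grouped above 4 of the 5 IS libraries and below the fifth, and differed by 0.08 (-0.11 to 0.27).

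Against control cells, the oxLDL + pNaKtide group had 0 of 10 genes called (2.04% of all genes higher and 3.16% lower), and the intervals of Cebpa (-0.18 to 0.28), Rxra (-0.19 to 0.19) and Pparg (-0.19 to 0.16) lay on both sides of 0. Cebpd had the largest difference, -0.24 (adjusted p = 0.376, edgeR), and passed without control replicate 1 (-0.38, 0.0835). The IS + pNaKtide group also had 0 of 10 called (0.139% of all genes higher and 0.218% lower), with Cebpa at -0.28 (interval -0.51 to -0.05, adjusted p = 0.192, edgeR) and Rxra below every control library (-0.19, adjusted p = 0.24, edgeR). Without control replicate 1, Pparg, Cebpa, Cebpd and Srebf1 were called as lower with IS + pNaKtide, as were 2481 of 20050 genes tested. With the trend over GC content and length out, 0 of 10 were called in either comparison, or with pNaKtide alone, with IS + pNaKtide against IS, or with IS against oxLDL, where Zfp423 had a difference of -0.36 (adjusted p = 0.305, edgeR).

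Whether pNaKtide acted differently in different cells was tested as a difference between its changes. Its change was more positive with oxLDL than in control cells for Srebf1 (0.40, SE 0.13, adjusted p = 0.0379), Cebpa (0.46, SE 0.16, 0.0507) and Rxra (0.33, SE 0.13, 0.0806) in edgeR's test, 3 of 10 genes against 24.6% of all genes. Over all genes, 4951 were called, 2116 to 3155 without control replicate 2 or 4, oxLDL + pNaKtide replicate 4 or pNaKtide replicate 3, and 7515 without control replicate 1. Srebf1 was called with each of the 20 libraries left out, Cebpa in 19 and Rxra in 11 of these fits. With the trend over GC content and length out, these calls were lost and Zfp423 was called instead (-0.52, adjusted p = 0.0481, edgeR). Between oxLDL and IS cells, Zfp423 alone of the 10 differed (29.3% of all genes did, and 18.9% without IS replicate 4 and 19.3% without oxLDL + pNaKtide replicate 4). Its change with pNaKtide was -0.34 in oxLDL cells, its log2 difference in IS cells was 0.14, and the difference between these changes was -0.49 (SE 0.16, adjusted p = 0.0339, edgeR). This held with each of the 20 libraries left out and with the trend out (-0.64, 0.0092). Between IS and control cells, none of the 10 differed (0% of all genes by edgeR, 619 at an unadjusted p under 0.05, 0 by DESeq2).

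The genes around these factors were taken as 4 lists, of partners and activators, inhibitors, fat cell targets and fatty acid synthesis. Their counts are read against the shares of all genes, 18.1% higher and 18% lower with oxLDL and 22.1% higher and 26.1% lower with oxLDL + pNaKtide against oxLDL. Once the trend over GC content and length was out, 8.48% were higher and 11.4% lower in the first of these comparisons and 18.9% and 17.9% in the second. On the scale of library size alone, the shares were 24.6% and 11.3%, then 13.4% and 38.1%. Of 16 genes of fatty acid synthesis, the programme under SREBP1, 6 fell and 1 rose with oxLDL (median -0.14, all genes 0.04). Fasn, the fatty acid synthase, fell from 1540 to 1050 CPM (log2 change -0.56, adjusted p = 0.00834), the desaturases Fads1 (-0.60, 0.00222) and Fads2 (-0.63) fell, and so did Acss2 (-0.62), Acly (-0.40) and Acaca (-0.33), which supply acetyl-CoA and malonyl-CoA, in edgeR's test. Elovl6, which lengthens fatty acids, rose (0.66, adjusted p = 0.0228, edgeR), and Scd1, the main desaturase of stearate, did not pass (0.05). With oxLDL + pNaKtide against oxLDL the 16 split both ways (median 0.06, all genes -0.09). In this comparison 5 rose (Fasn 0.62, Fads2 0.55, Fads1 0.53, Acaca 0.31 and Acss2 0.25), 4 fell (Elovl6 -0.77, Gpam -0.51, Me1 -0.26 and Elovl5 -0.17), and Acly did not pass (0.02). By library size alone, 3 were higher and 5 lower with oxLDL (median -0.01, all genes 0.17), and 3 higher and 8 lower with oxLDL + pNaKtide against oxLDL (median -0.17, all genes -0.30). Fasn (-0.40), Fads1 (-0.50), Fads2 (-0.43), Acss2 (-0.81), Acly (-0.31) and Acaca (-0.49) were still called as lower with oxLDL once the trend over GC content and length was out, when 7 of 16 were lower and 1 (Thrsp) higher, against 11.4% and 8.48% of all genes.

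Among the genes around Srebf1, Scap, which encodes the escort of SREBPs, changed by -0.48 with oxLDL (adjusted p = 0.00573) and 0.51 with oxLDL + pNaKtide against oxLDL (9.41e-05), and Srebf2, the SREBP of cholesterol synthesis, by -0.40 (0.00783) and 0.34 (0.00258) in edgeR's test. Nr1h3, which encodes the liver X receptor that drives Srebf1 transcription, changed by -0.55 (0.00818) and 0.73 (7.33e-05). All of these were still called in both comparisons with the trend out. Insig1, which holds SREBPs back, did not pass with oxLDL (0.14) and fell with oxLDL + pNaKtide against oxLDL (-0.72, adjusted p = 0.000294, edgeR), from 289 to 175 CPM.

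Among all 32 partners and activators tested, 14 rose and 5 fell with oxLDL (median 0.39, all genes 0.04, where 18.1% rose and 18% fell), and 5 rose and 21 fell with oxLDL + pNaKtide against oxLDL (median -0.44, all genes -0.09, where 22.1% rose and 26.1% fell). The 5 that moved the first way down and the second way up were Nr1h3, Scap, Srebf2, Rxrb, the relative of Rxra (-0.43 and 0.41), and Ppard, the relative of Pparg (-0.27 and 0.34), of which Rxrb alone was no longer called with the trend out (-0.15 and 0.07). Creb1, which turns on Cebpb when cyclic AMP rises, changed by 0.75 (adjusted p = 0.00865) and -1.05 (8.54e-05), Klf5, which acts with the early C/EBPs on Pparg, by 0.40 and -0.76, and Ebf2, the relative of Ebf1, by 0.48 and -0.73, all in edgeR's test. Many of these calls went with the trend. With it out, 7 rose and 4 fell with oxLDL (8.48% and 11.4% of all genes), 4 rose and 14 fell with oxLDL + pNaKtide against oxLDL (18.9% and 17.9% of all genes, list median -0.22), and Creb1 did not pass (0.12 and -0.18), while Klf4 (0.61 and -0.89) and Klf9 (0.37 and -0.47), which act on Cebpb and Pparg, were called in both comparisons. By library size alone, 17 rose and 4 fell with oxLDL (median 0.52), and 3 rose and 23 fell in the second comparison (median -0.66).

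Of 23 inhibitors of fat cell formation tested, 5 rose (Ctnnb1, Klf3, Insig2, Tcf7l2 and Nr2f1) and 3 fell (Trib3, Foxc2 and Zfpm1) with oxLDL (median 0.17, all genes 0.04), near the shares of all genes, 18.1% and 18%. With oxLDL + pNaKtide against oxLDL, 4 rose (Trib3, Klf2, Foxc2 and Zfpm1) and 11 fell (median -0.32, all genes -0.09). With the trend out, the counts were 2 higher (Ctnnb1 and Nr2f1) and 2 lower (Trib3 and Wwtr1), near the 8.48% and 11.4% of all genes, then 3 higher (Foxo1, Wwtr1 and Ddit3) and 6 lower, where 18.9% and 17.9% of all genes were. The counts by library size alone were 7 higher and 1 lower (median 0.30), then 3 higher and 14 lower (median -0.54). Ctnnb1, the β-catenin of Wnt signalling, changed by 0.24 (adjusted p = 0.0212) and -0.52 (1.31e-05), in edgeR's test, and was called in the same directions with the trend out. Zfp521, the antagonist of Zfp423 and Ebf1, did not pass with oxLDL (0.30) and fell with oxLDL + pNaKtide against oxLDL (-0.62, adjusted p = 0.00147, edgeR), as Zfp423 did. Trib3, a pseudokinase, changed by -0.53 and 0.48 and Zfpm1, the partner of GATA factors, by -0.41 and 0.57. Ddit3, which binds C/EBP proteins and blocks them, did not pass in either comparison (0.06 and 0.20) and was called against oxLDL with the trend out (0.33, adjusted p = 0.00572, edgeR). Gata3 (0.41 and -0.53) and, with oxLDL, the corepressor Ncor1 (0.23) did not pass, and Ncor1 fell with oxLDL + pNaKtide against oxLDL (-0.32).

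The fat cell targets of PPARγ and C/EBPα did not move as a block. With oxLDL, 8 of 28 fell and 1 rose (median -0.10, all genes 0.04), where 18% of all genes fell and 18.1% rose. Adipoq (-0.20), the lipid carrier Fabp4 (0.18), Plin1 (-0.11), the lipoprotein lipase Lpl (0.09) and Slc2a4 (-0.18) did not pass. Pnpla2, the triglyceride lipase (-0.43, adjusted p = 0.0131, edgeR), and Cfd, adipsin (-0.53), were among those that fell, and the fatty acid carrier Cd36 rose (0.53, adjusted p = 0.0109, edgeR). With the trend out, 1 fell (Lpl, -0.33) and 1 rose (Aqp7, 0.31), where 11.4% of all genes fell and 8.48% rose. By library size alone, 5 were lower and 4 higher, and the median took the other sign (0.03, all genes 0.17). With oxLDL + pNaKtide against oxLDL, 13 of 28 rose, with a median of 0.26 (all genes -0.09), and Cd36, Irs1 and Insr were among those that fell. The genes called included Pnpla2 (0.77, adjusted p = 2.33e-05), Adipoq (0.44, 0.00461), Slc2a4, the insulin-responsive glucose transporter (0.42, 0.00118), and, downward, Cd36 (-0.73, 0.000159) in edgeR's test. Fabp4 (0.03), Plin1 (0.15) and Lpl (0.01) did not pass. By library size alone, 10 rose and 7 fell (median 0.03, all genes -0.30). With the trend out, 13 rose, where 18.9% of all genes did, and Irs1 was among those that fell, Pnpla2 (0.47), Adipoq (0.41) and Fabp4 (0.56) were called and Cd36 was not (0.04). The summed FPKM of 8 fat cell markers, Pparg and Cebpa among them, was 4490 to 6420 in control cells, 5330 to 7490 with pNaKtide, 4160 to 5960 with oxLDL, 5660 to 7300 with oxLDL + pNaKtide, 3790 to 5320 with IS and 4280 to 4980 with IS + pNaKtide. The ranges overlap between control cells and each other group, and its part in these results was not tested.

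With IS, the same 4 lists were counted against 3.49% of all genes lower and 4.45% higher. Of the fat cell targets, 6 of 28 fell and 1, Cd36, rose (median -0.19, all genes 0.03), with Dgat2, which makes triglyceride, at -0.47 (adjusted p = 0.0113, edgeR) and Adipoq at -0.43 (0.0719). Of the 16 genes of fatty acid synthesis, 2 fell (median -0.14), namely Fasn (-0.47, adjusted p = 0.0694) and Fads1 (-0.31, 0.0891), in edgeR's test. Of the partners, Nr1h3, Srebf2, Scap, Ppard and Rxrb fell (5 of 32, median 0.08), and Klf9 rose (0.39, adjusted p = 0.095, edgeR). Of the inhibitors, Trib3 fell (-0.67) and Ctnnb1 rose (0.23), with a list median of 0.06. With control replicate 1 and IS replicate 4 left out, 15 targets were lower and 3 higher and 14 partners were higher and 6 lower, again against 4783 genes higher and 4357 lower of 19973. When only the 2 groups compared were fitted no gene was called. At an adjusted p of 0.05 the list genes called were Dgat2, Hp, Nr1h3 and Trib3, all lower. Without any 1 of the other 8 control and IS libraries, 15 to 306 genes were called in all. With library size alone as the scale, 5 targets were lower and 2 higher (median -0.07, all genes 0.14), and 5 partners were higher and 3 lower. With IS + pNaKtide against IS and with pNaKtide alone, no gene of the 4 lists passed, and with the trend out Trib3 was called between IS + pNaKtide and IS (0.40, adjusted p = 0.0648, edgeR). Against control cells, IS + pNaKtide lowered Dgat2 (-0.37) and raised Klf6 (0.58, both at an adjusted p of 0.0741, edgeR), where 0.139% of all genes were higher and 0.218% lower. Without control replicate 2, IS + pNaKtide replicate 3 or IS + pNaKtide replicate 5, no gene was called as higher and 2 as lower in edgeR's test, so that the call of Klf6 was lost. Scaled by library size alone Klf6 did not pass (adjusted p = 0.138, edgeR), with at least 1 count as the filter Dgat2 did not (0.126), and at an adjusted p of 0.05 neither did. Against the same cells, oxLDL + pNaKtide raised 5 targets (Pck1, Aqp7, Mrap, Gpd1 and Retn, by 0.38 to 0.47) and lowered Acly (-0.38), Acss2 (-0.37), Insig1 (-0.58), Ctnnb1 (-0.28), Zfpm2 (-0.52), Stat5a (-0.36) and Stat5b (-0.34), where 2.04% of all genes were higher and 3.16% lower. When only the 2 groups compared were fitted, 12 genes were called in place of 1047 and none of them was in the 4 lists.

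The change with pNaKtide differed between oxLDL and control cells for 1 or more genes of every list, where 24.6% of all genes were called. The counts were 13 of 32 partners, 5 of 16 genes of fatty acid synthesis, 7 of 28 targets and 5 of 23 inhibitors, the last 2 near the share of all genes. With the trend over GC content and length taken out, 11.4% of all genes were called and the counts were 7, 3 (Fasn, Acaca and Fads1), 0 and 4 (Foxo1, Nr2f1, Ctnnb1 and Insig1). By library size alone, more genes of all had a negative difference (19.8%) than a positive one (6.35%), and so did the partners (12 and 3), fatty acid synthesis (4 and 2) and the inhibitors (7 and 1), with the targets at 2 each. Scap (0.59, adjusted p = 0.0188) led the 5 partners with a more positive change, with Rxrb, Nr1h3, Srebf2 and Ppard, and Klf6 (-0.76, 0.0242) the 8 with a more negative one, in edgeR's test. Fads1 (0.54, adjusted p = 0.0247, edgeR), Fasn (0.59), Acaca (0.37) and Fads2 (0.46) moved more positively, and Elovl6 (-0.75) more negatively. Pnpla2 (0.58) led 6 targets, Cd36 (-0.73) was the 1 target of the other sign, and Trib3 (0.57), Foxc2 (0.66), Ctnnb1 (-0.48), Insig1 (-0.69) and Klf3 (-0.51) were the inhibitors called. Between oxLDL and IS cells, where 29.3% of all genes were called, the genes with the smallest adjusted p were Nr1h3 (0.71) and Klf6 (-0.95), Foxc2 (0.72) and Ctnnb1 (-0.43), Cfd (0.92) and Cd36 (-0.65), and Fasn (0.66) and Gpam (-0.59).

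**Figure D4:**
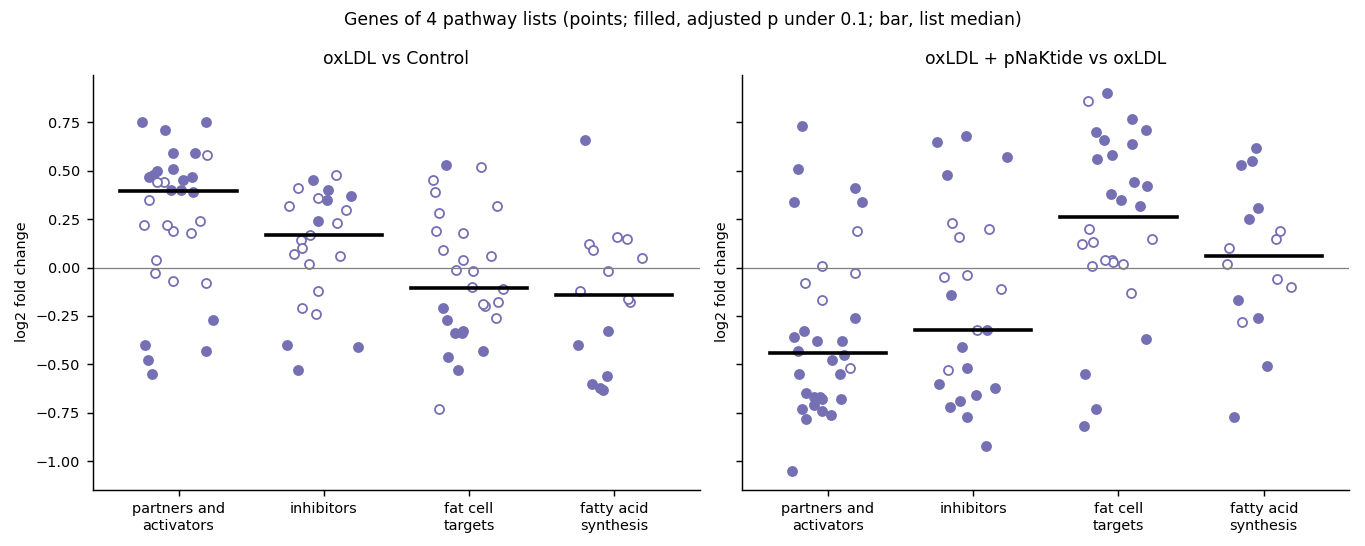
Log2 fold change (vertical axis) of each gene of the 4 lists (horizontal axis) with oxLDL against control (left) and oxLDL + pNaKtide against oxLDL (right), filled where the adjusted p was under 0.1, with the list median as a bar. The medians of partners and activators are 0.39 and -0.44 and those of fat cell targets -0.10 and 0.26.

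The genes whose log2 CPM followed each factor most closely over the 30 libraries were sought among the 9871 genes whose mean log2 CPM reached 3. Rxra was matched best, by Nacc1 with a root mean square difference of 0.063 and Eif4ebp2 with 0.068, against its own SD of 0.171. Pparg was followed by Pex19 (0.067) and Atp5b (0.073, own SD 0.155), and Srebf1 by Srf (0.079) and Hectd3 (0.083, own SD 0.160). Cebpa was followed by Fam83a (0.096) and Cnnm2 (0.106, own SD 0.243), and Ebf1 by Caprin1 (0.102) and Prkaa1 (0.105, own SD 0.195). These values keep the trend over GC content and the counting noise of each gene, and shared control of the matched genes was not tested. The nearest genes of the other factors were less alike on this measure, which is not scaled to a gene's own SD. These nearest genes were Phc2 (0.12) and Plekhh3 (0.121) for Cebpd, Cdkn2c (0.13) and Nrbf2 (0.141) for Klf15, Tle3 (0.147) and Acin1 (0.152) for Zfp423, Kdelr2 (0.168) and BC003965 (0.184) for Cebpb, and Recql (0.338) and Sec61a2 (0.358) for Gata2.

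Exons of 4 of the factors overlap a gene on the other strand, and the strand setting of the counting is not given in the sources used here. Tmem189 shares 20.74% of the exon bases of Cebpb, Spidr 15.00% of those of Cebpd, and Rai1 and Gm45091 1.93% each of those of Srebf1 and Cebpa. With oxLDL none of the 4 was called. With oxLDL + pNaKtide against oxLDL, Spidr fell (-0.64, adjusted p = 1.03e-05, edgeR) while Cebpd differed by 0.03, Tmem189 rose (0.17, 0.0846) while Cebpb had a difference of -0.28, and Rai1 fell (-0.36, 0.0865) while Srebf1 rose. Gm45091, with 0 to 12 counts, had the sign of Cebpa in both comparisons and did not pass (-0.17 with oxLDL and 0.54 with oxLDL + pNaKtide against oxLDL, adjusted p = 0.801 and 0.304, edgeR).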

How the data were processed

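RNA from 30 libraries was sequenced by the authors (stranded mRNA kit, paired reads), trimmed with Trimmomatic 0.38, aligned to GRCm38 with HISAT2 2.1.0 and counted per gene with GenomicAlignments. The deposited counts are whole numbers of reads per Ensembl gene, not normalized, and the authors' own tests used DESeq2 1.20.0. The deposited FPKM values, made by the authors, gave levels scaled to gene length. The sources used here state neither the annotation release nor the strand setting. The 10 members and the pathway and marker lists were chosen with earlier results of these data known.

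Of 54232 genes, the 20139 with more than 14 counts summed over the 30 libraries were tested in 1 model of 6 groups with edgeR 4.0.16 (TMM, robust quasi-likelihood test, two-sided, Benjamini-Hochberg adjusted p under 0.1 called) in R 4.3.3. Symbols were found for 54165 IDs. The trend over GC content and length was fitted for each library with mgcv 1.9.3. Alternatives included DESeq2 1.42.0, limma 3.58.1 on log2(FPKM + 1), other filters and scalings, and each library left out. No 2 libraries of a group were alike within sampling noise (smallest chi-square per degree of freedom 1.28 over 60 pairs), but some pairs came close to it. Among them were IS + pNaKtide replicates 3 and 4 (1.28) and control replicates 2 and 4 (1.76). In the pNaKtide group, replicates 1 and 2 (1.35) and 4 and 5 (1.37) were close, where the other pairs had 13.43 to 17.19. Whether such pairs share a culture is not given, so that the 5 libraries of a group may not be independent. The test was checked on simulated counts. These held no trend over GC content and larger changes than those called for the 10 genes in the main fit, so that the check does not cover such a trend. Named were the 10 members throughout, per comparison and direction the list gene of smallest adjusted p, a set of targets, partners and inhibitors by name, the 2 genes most like each member, and the genes of most counts of 5 or fewer. Others named as examples (Fads2, Acss2, Acaca, Klf4, Klf9, Cfd, Nr1h3) were chosen after their values were seen. A result for a gene of the target list is not reported here.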

Additional observations from a re-analysis of the deposited data

Results flagged for a closer look

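In 6 of the 60 sets of 5 libraries (10 genes in 6 groups), a single library lay far from the other 4 by Dixon's test, where chance alone gives about 1 in 20. Cebpb was 39.6 CPM in control replicate 5 (others 22.6 to 25.7) and 48.1 CPM in oxLDL + pNaKtide replicate 3 (others 21.1 to 25.3). Klf15 was 18.9 CPM in that same oxLDL + pNaKtide library (others 11.9 to 13.7). Cebpd was 89.8 CPM in oxLDL replicate 4 (others 71.6 to 76.3), Zfp423 was 24.3 CPM in IS + pNaKtide replicate 1 (others 18.9 to 20.3), and Rxra was 497 CPM in IS replicate 4 (others 353 to 381). The last is one of the libraries that stood apart over all genes.

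The change with pNaKtide differed between oxLDL and control cells, in edgeR's test of the difference, for Cebpa (0.46 on the log2 scale), Srebf1 (0.40) and Rxra (0.33). It differed between oxLDL and IS cells for Zfp423 (-0.49). The trend over GC content and length alone differed between oxLDL + pNaKtide and oxLDL by 0.43 for Cebpa, 0.23 for Srebf1, 0.20 for Rxra and 0.19 for Zfp423, and between IS + pNaKtide and IS by 0.02 to 0.04 for these genes and between pNaKtide and control cells by -0.06 to 0.00. This trend and the treatment cannot be told apart. With it taken out, the Zfp423 difference was called at -0.64 and the other 3 were not called.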

How the results depend on the processing

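Over the 110 results for single genes, 1215 of 1298 values under other settings stayed on their side of the threshold (the sign of values not called is not counted), 54 moved past it, 26 fell short of it and 3 reversed. With 1 library left out, 1338 of 1400 stayed, 28 moved past and 34 fell short. The called values that reversed came with the trend over GC content and length taken out. They were Cebpa with oxLDL (0.01) and with oxLDL + pNaKtide against oxLDL (-0.08), and Ebf1 in the latter (0.29). Values not called changed sign there too, such as Ebf1 with oxLDL (0.21 to -0.22) and with IS (0.11 to -0.18), and with library size alone Pparg did in oxLDL + pNaKtide against oxLDL (0.15 to -0.07). The cause was not tested. Counts of the 10 genes called moved as follows. With oxLDL, 7 were called without control replicate 1 and IS replicate 4, against 4, where 48% of all genes were called against 36%. With IS, against 2, the count was 1 with library size alone, with at least 1 count or with an adjusted p of 0.05. It was 0 with the trend out or with only the groups compared, and 5 without both libraries. With 1 library left out it was 0 to 4 (4 without control replicate 1 or IS replicate 4). Of all genes, 7.94% were called with IS in the main fit. The share was 12.6% with library size alone, 1.86% with at least 1 count and 0.646% at an adjusted p of 0.05. It was 4.05% with the trend out, 0% with only the groups compared and 45.8% without both libraries. Without control replicate 1 the share was 33.4%, and without IS replicate 4 it was 34.4%. Against control cells, oxLDL + pNaKtide had 0, or 1 with library size alone or without both libraries, and 0 to 1 with 1 left out (1 without control replicate 1). Where 1 was called, the shares of all genes were 9.77%, 6.53% and 3.66%, against 5.2%. Against the same cells, IS + pNaKtide had 0, or 1 by DESeq2 (Cebpa, -0.29, adjusted p = 0.0983), 5 without both libraries, and 0 to 4 with 1 left out (4 without control replicate 1). The shares of all genes called were 12.4% by DESeq2, 32.7% without both libraries and 26.9% without control replicate 1, against 0.358%. The difference of the pNaKtide change between oxLDL and control cells had 3, or 1 at an adjusted p of 0.05 or with the trend out, 5 without both libraries, and 1 to 4 with 1 left out (1 without control replicate 5, 4 without control replicate 1). In the order of these settings, 13.4%, 11.4% and 40.3% of all genes were called, against 24.6%. The shares were 17.5% without control replicate 5 and 37.5% without control replicate 1. Between oxLDL and IS cells the difference had 1, or 3 (with Klf15 and Ebf1) with library size alone or more than 14 counts in every library, where 32.1% and 52.2% of all genes were called against 29.3%, 2 with edgeR's own filter, with the trend out, by DESeq2, by limma or with only the groups compared, and 1 to 5 with 1 left out (5 without oxLDL + pNaKtide replicate 3). The shares of all genes ran from 17.9% (trend out) to 48.2% (limma) where 2 were called, and the share was 33% where 5 were. Gata2, with 2 to 19 counts, is the gene that depth limits most.

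Whether replicate numbers pair the libraries is not given in the labels and was not tested. Same-numbered libraries correlated by -0.66 to 0.79 (median 0.10, 75 pairs) and others by -0.81 to 0.69 (median -0.03, 300 pairs), and such overlapping ranges cannot exclude a pairing. With a replicate block, 2 genes were called in the difference between oxLDL and IS cells, against 1 (33.2% of all genes, against 29.3%), and no other count of the 10 moved by over 1.5 times. Over all genes it moved the calls from 1599 to 3423 with IS, from 72 to 1338 with IS + pNaKtide against control and from 1047 to 1653 with oxLDL + pNaKtide against control, and the partners higher with IS from 1 to 6. The genes newly past the threshold were Ebf1 in that difference (-0.34) and with oxLDL (0.22), and Pparg with IS (-0.23).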
